A study of Mus musculus with 7 samples.

Results

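The nuclear-encoded subunits of oxidative phosphorylation were examined in RNA sequencing data of mouse T-cells. They were chosen by gene name, as every gene whose symbol starts with Nduf, Uqcr, Atp5 or Cox4 to Cox8, together with Sdha, Sdhb, Sdhc, Sdhd and Cyc1, without assembly factors (Ndufaf) and pseudogenes. Of 25033 genes listed, 87 carried such a name, and the 80 with at least 10 reads in every library were compared between genotypes. These were 37 of 39 genes of complex I, 4 of 4 of complex II, 9 of 9 of complex III, 13 of 18 of complex IV and 17 of 17 of complex V. No expression difference entered this rule, but the subunits were chosen with earlier results of these data known.

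The 7 libraries came from 4 ORP4L KI mice and 3 WT littermates on the C57BL/6J background, 1 library per mouse, all 15 months old by the labels. ORP4L KI mice carry, in the Rosa26 locus, a human ORP4L coding sequence with a Flag tag and EGFP behind a stop cassette flanked by loxP sites, and Cre under the Lck promoter, active in T-cells, removes the stop. They were taken when moribund, so genotype and disease state cannot be told apart in this comparison. Whether the WT littermates carried the Lck-Cre transgene, and whether cells came from blood or spleen, is not given in the sources used here.

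Oxidative phosphorylation makes most of the ATP of a resting cell at the inner mitochondrial membrane. Complex I (NADH dehydrogenase) and complex II (succinate dehydrogenase) feed electrons into ubiquinone, complex III passes them to cytochrome c, and complex IV (cytochrome c oxidase) hands them to oxygen. The proton gradient built on the way drives complex V, the ATP synthase. Most subunits are encoded in the nucleus and are needed in fixed proportions, and activated T-cells are known for raising glycolysis and respiration together as they grow.

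The libraries held between 12918187 and 19665679 counted reads. As a check of the labels, reads of Osbp2, which encodes ORP4L in mice, numbered 0, 0 and 1 in WT libraries and 188, 742, 155 and 443 in ORP4L KI libraries. Reads of the human transgene that map to the mouse gene cannot be told apart from its own. Of 15 T-cell markers 12 were listed, and all 12 were detected without a difference past an unadjusted p of 0.05 (CPM here are reads scaled to a common library size by TMM). Their summed level was 1618 CPM in ORP4L KI replicate 1 and 2588 to 4300 CPM in the other 6 libraries. Markers of other blood cells were present too. Granulocyte markers took 0.186% to 0.53% of the reads in WT and 1.12% to 12.2% in ORP4L KI libraries, most of them in ORP4L KI replicate 1. All 14 were higher past an unadjusted p of 0.01 by edgeR with a log2 fold change above 1, as 2.38% of all genes were. All 14 proliferation markers had log2 fold changes above 0, as 51.5% of all genes did. Of these markers 10 were past an unadjusted p of 0.05, as 6.85% of all genes were as higher. Their summed level was 2129 CPM in ORP4L KI replicate 1 and 587 to 1167 CPM in the others. The mean transcript length, weighted by reads, was 2459 to 2835 bases in 5 libraries and 3344 and 3292 bases in WT replicate 3 and ORP4L KI replicate 2.

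Promoter sequences are shown for Atp5k and Ndufb7, the subunit with the largest positive log2 fold change and the complex I subunit with the highest level per length, because each holds the letters of a regulator long tied to respiratory genes. The bases are the 250 before the transcription start, from RefSeq on build GRCm38.p6. Atp5k, encoding the e subunit of the ATP synthase, is read from the minus strand (chr5:108434400-108434649), and its capitals mark GCATGCG on both strands, the core of the sites of nuclear respiratory factor 1. Ndufb7, an accessory subunit of complex I, is read from the plus strand (chr8:83566508-83566757), and its capitals mark CCGGAAG, a core bound by ETS factors such as GABP.
Atp5k: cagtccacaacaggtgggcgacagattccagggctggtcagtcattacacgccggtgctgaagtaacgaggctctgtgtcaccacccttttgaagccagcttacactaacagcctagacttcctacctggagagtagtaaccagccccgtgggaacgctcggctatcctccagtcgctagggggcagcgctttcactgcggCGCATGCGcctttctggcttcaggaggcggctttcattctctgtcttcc
Ndufb7: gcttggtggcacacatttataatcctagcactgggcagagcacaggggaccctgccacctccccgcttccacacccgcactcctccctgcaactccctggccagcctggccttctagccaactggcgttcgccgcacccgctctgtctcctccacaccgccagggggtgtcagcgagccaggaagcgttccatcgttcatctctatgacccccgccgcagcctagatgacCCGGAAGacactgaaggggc

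Promoters of 64 of the 80 subunits were matched by symbol in RefSeq windows of 300 bases, from 250 before to 50 after the start, and 4 motifs were searched on both strands. GCATGCG lay in 11 subunit promoters (17.2%) and in 4.96% of the promoters of 17486 genes. CCGGAAG lay in 17 (26.6%) against 13% of all, and AAGATGG, the core bound by Yy1, in 10 (15.6%) against 7.18%. GGGCGGG, the core bound by Sp1, lay in 21 (32.8%) against 36.9%. GCATGCG and its reverse complement overlap in the 8 letters shown for Atp5k, and the other motifs share no full match with each other there. Such matches describe letters, not binding. Of the regulators themselves, Nrf1 had at most 45.7 CPM in WT and 46.1, 54.7, 48.9 and 51.1 CPM in ORP4L KI libraries. Its groups did not overlap, as for 6.43% of all genes with ORP4L KI higher. Gabpa, of the ETS factor GABP, had 45.7, 40.6 and 64.7 CPM in WT and 45.0, 66.6, 50.5 and 46.3 CPM in ORP4L KI libraries. Yy1 had 114, 114 and 147 CPM in WT and 131, 166, 128 and 136 CPM in ORP4L KI libraries. None of them passed an unadjusted p of 0.05. Log2 fold changes were 0.25 (standard error 0.17) for Nrf1, 0.05 (0.23) for Gabpa and 0.17 (0.19) for Yy1.

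Messenger RNA levels of the respiratory chain and ATP synthase overlapped between the genotypes for 79 of 80 subunits. None of the 80 subunits had an adjusted p under 0.05 by edgeR's quasi-likelihood test with Benjamini-Hochberg adjustment over the 13462 genes tested, where 3 genes (0.0223%) did. At an unadjusted p under 0.05, 0 subunits were higher in ORP4L KI T-cells, where 6.85% of all genes were, and 1 was lower, where 6.86% of all genes were. The lower gene was Cox6a2, which was also the only subunit past an unadjusted p of 0.01 with a log2 fold change above 1 in size. Among all genes, 2.38% passed these lines as higher and 2.3% as lower. No subunit had every ORP4L KI library above every WT library, as 6.43% of all genes did, and Cox6a2 alone had every ORP4L KI library below every WT library, as 7.38% did.

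The other 79 subunits had log2 fold changes from -0.13 to 0.94, with standard errors from 0.17 to 0.68 (median 0.36) and edgeR adjusted p-values from 0.406 to 0.996. For 55 of the 80 the standard error exceeded the size of the change. Even so, the estimates lay mostly on one side, with 73 subunits above 0, where 51.5% of all genes were, and 7 below, where 48.5% were. The median over the 80 was 0.30, against 0.01 over all genes tested. The mean of the ORP4L KI libraries exceeded that of WT for 73 subunits, whereas the median of the ORP4L KI libraries exceeded the WT median for 24 of 80.

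**Figure D1:**
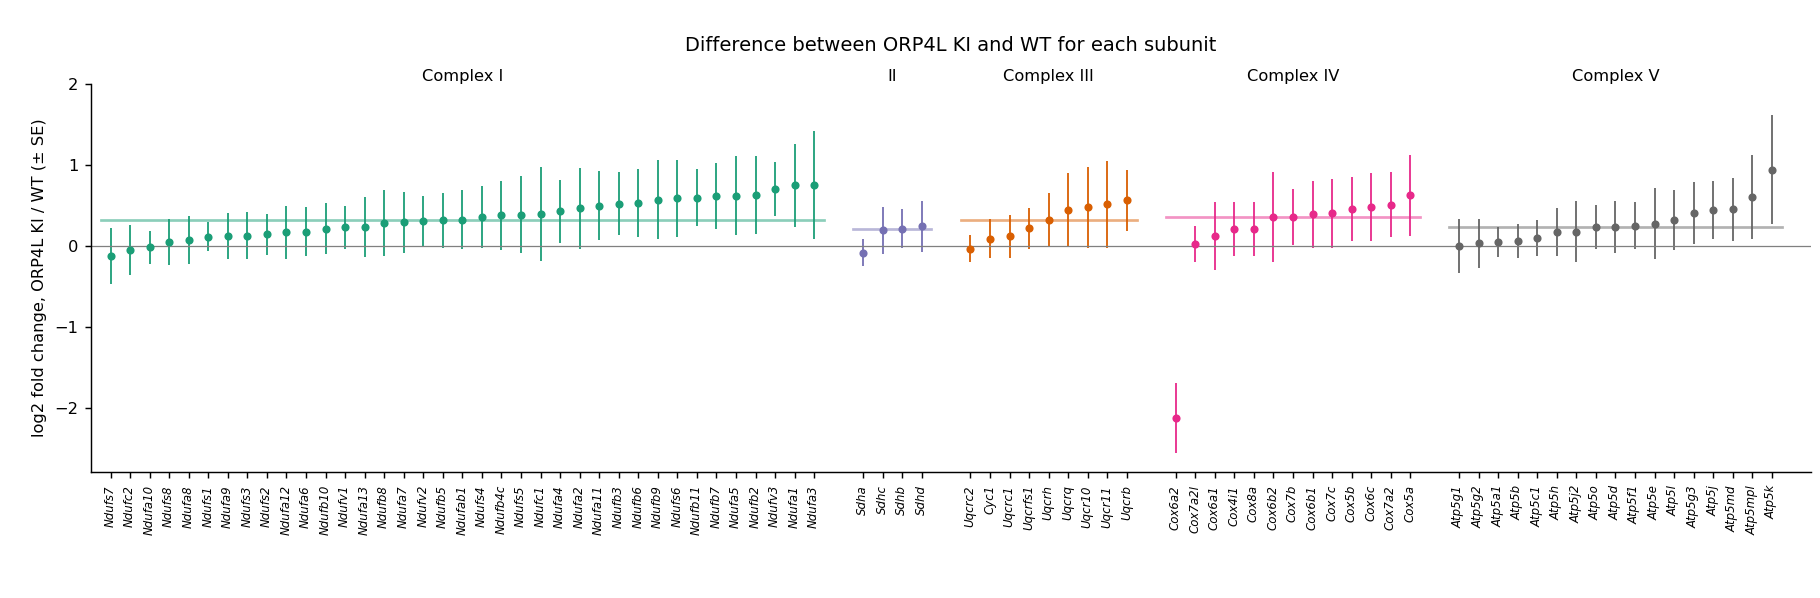
Log2 fold change of ORP4L KI over WT (y axis) for each of the 80 subunits, grouped by complex and sorted within it. Points are edgeR estimates, bars are ± 1 standard error and thick lines are the median of each complex. Estimates other than Cox6a2 lie between -0.13 and 0.94.

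Single libraries set the pattern. ORP4L KI replicate 1, the library with the fewest T-cell marker reads and the most granulocyte and proliferation marker reads, was the highest of the 7 libraries for 76 of 80 subunits, all but Atp5a1, Cox6a2, Sdha and Uqcrc2. WT replicate 3 was the lowest for 69 of 80 and lay below both other WT libraries for 79 of 80. Set against the geometric mean of the 7 libraries, the median subunit deviated by 0.89 on the log2 scale in ORP4L KI replicate 1 and by -0.80 in WT replicate 3. ORP4L KI replicate 2 was low (-0.48), and the other 4 libraries lay between -0.05 and 0.17. Whether those markers bear on the subunit levels was not tested. Counted against the WT mean, 77 subunits were above it in ORP4L KI replicate 1, 5 in replicate 2, 50 in replicate 3 and 71 in replicate 4.

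**Figure D2:**
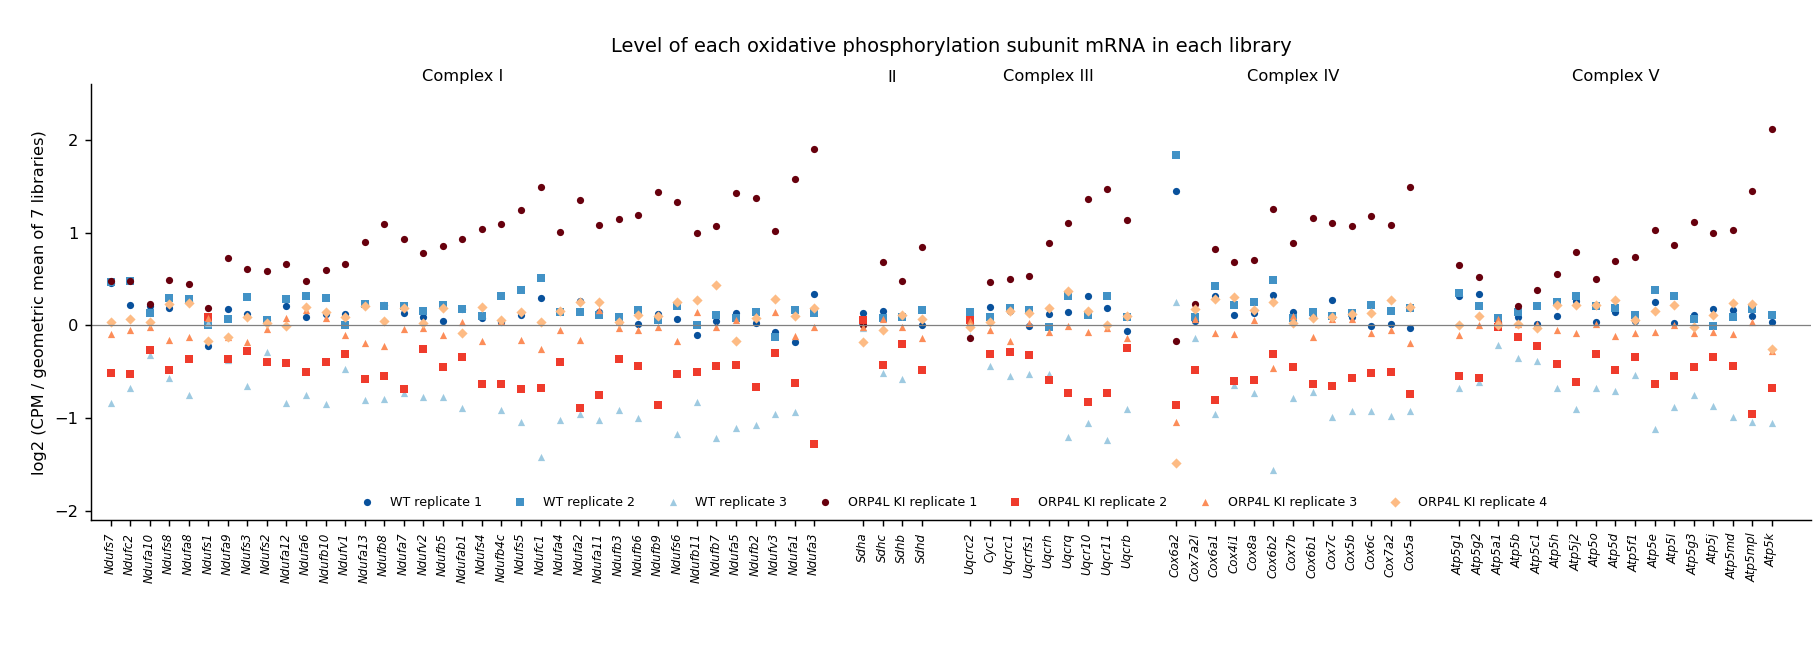
Level of each of the 80 subunits in each of the 7 libraries, as log2 of CPM over the geometric mean of the 7 (y axis), grouped by complex. Each point is 1 library. ORP4L KI replicate 1 is highest for 76 subunits and WT replicate 3 lowest for 69, and points of both genotypes interleave between them.

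Leaving out ORP4L KI replicate 1 moved the median of the 80 log2 fold changes to -0.02, with 31 subunits above 0, and leaving out WT replicate 3 moved it to 0.06, with 49 above 0. With WT replicates 1 and 2 set against ORP4L KI replicates 3 and 4, a comparison added after the data were seen, the median was -0.09 and 9 of 80 subunits lay above 0. Scaling by total reads alone gave a median of 0.11 with 57 of 80 above 0, and shifted the median of all genes to -0.13. The direction of the median therefore differed between sets of libraries.

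Summed over its members, each complex was highest in ORP4L KI replicate 1 and lowest in WT replicate 3, with ORP4L KI replicate 2 next to lowest. Complex I had 1841, 1918 and 1028 CPM in WT replicates 1, 2 and 3, and 3153, 1245, 1665 and 1872 CPM in ORP4L KI replicates 1, 2, 3 and 4. Complex III had 768, 787 and 482 CPM in WT and 1165, 562, 684 and 779 CPM in ORP4L KI. In both, the ORP4L KI libraries other than replicate 1 fell inside the WT range. Complex IV had 1557, 1646 and 908 CPM in WT and 2535, 945, 1405 and 1633 CPM in ORP4L KI. Complex V, the most abundant, had 3030, 3170 and 1980 CPM in WT and 4060, 2325, 2801 and 2988 CPM in ORP4L KI. Complex II varied least, with 399, 390 and 307 CPM in WT and 488, 333, 362 and 356 CPM in ORP4L KI. The groups overlapped for every complex. All 80 subunits together took 0.518% to 0.822% of the reads in WT and 0.589% to 0.952% in ORP4L KI libraries.

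**Figure D3:**
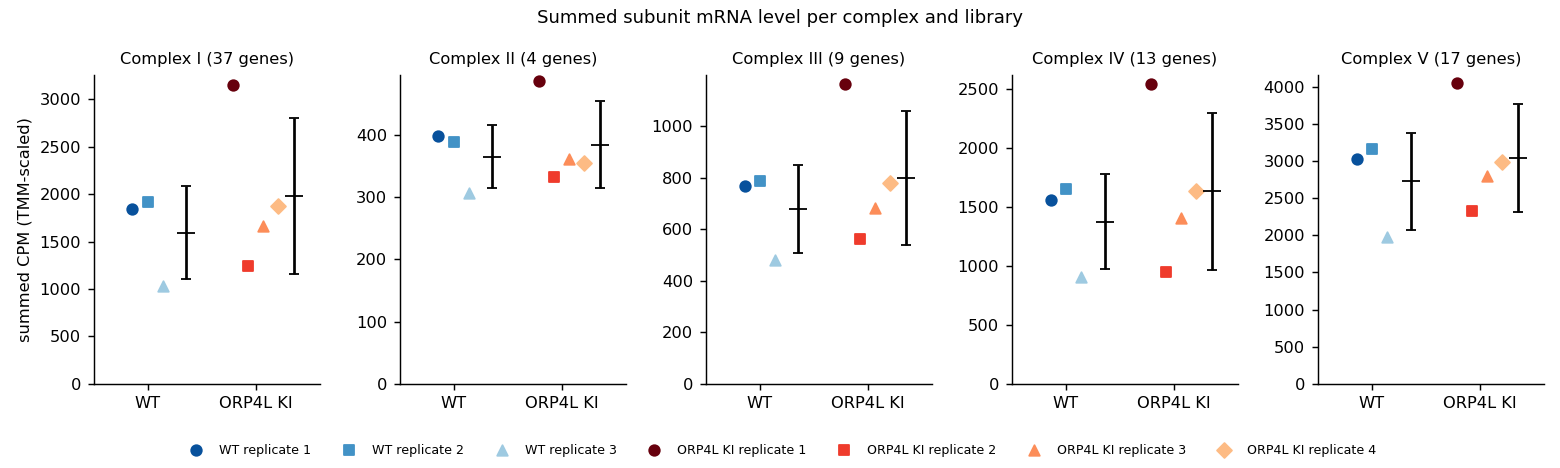
Summed CPM (y axis, from 0) of the subunits of each complex in each library. Points are libraries, and bars give the mean ± SD of 3 WT and 4 ORP4L KI libraries. In each panel ORP4L KI replicate 1 is highest and WT replicate 3 lowest, and the other ORP4L KI libraries lie within the WT range.

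The complexes had similar medians, and differences between complexes were not tested. Median log2 fold changes were 0.32 for complex I (34 of 37 above 0), 0.20 for complex II (3 of 4), 0.31 for complex III (8 of 9), 0.35 for complex IV (12 of 13) and 0.23 for complex V (16 of 17). Each of these medians was below 0 without ORP4L KI replicate 1, from -0.08 for complex II to -0.01 for complex V.

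In complex I, Ndufv3, an accessory subunit beside the NADH-binding core, came nearest to a difference among the subunits that were higher. It had 46.8, 45.0 and 25.4 CPM in WT and 99.3, 40.1, 54.6 and 59.9 CPM in ORP4L KI libraries. ORP4L KI replicates 1, 3 and 4 lay above every WT library and replicate 2 lay inside the WT range. Its log2 fold change of 0.70 (standard error 0.34) had an unadjusted p of 0.0651 and an adjusted p of 0.406 by edgeR's quasi-likelihood test. It remained above 0 in all 20 alternative settings, from 0.32 to 0.86. Ndufb11, a small membrane-arm subunit, had 82.4, 89.2 and 50.1 CPM in WT and 178, 62.7, 97.6 and 108 CPM in ORP4L KI. ORP4L KI replicates 1, 3 and 4 were again above WT and replicate 2 was not (log2 fold change 0.59, standard error 0.35, edgeR adjusted p = 0.527).

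The largest estimate in complex I belonged to Ndufa3, a small accessory subunit of the membrane arm. Its levels were 34.3, 29.8 and 11.2 CPM in WT and 101, 11.1, 26.8 and 30.9 CPM in ORP4L KI libraries. Only ORP4L KI replicate 1 lay above WT, and the 9.08-fold span between the highest and lowest library exceeded the difference of the means (log2 fold change 0.75, standard error 0.67). Ndufa1, needed for assembly of the membrane arm, had 22.1, 28.1 and 13.1 CPM in WT and 75.1, 16.2, 23.2 and 26.9 CPM in ORP4L KI, with the same single high library (0.74, standard error 0.51). The accessory subunits Ndufb7, Ndufb3 and Ndufb2 had log2 fold changes of 0.61, 0.52 and 0.63 with overlapping groups. Ndufb7 had the highest level per length of complex I, a median RPKM of 167 over the 7 libraries.

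At the other end of complex I stood Ndufs7, an iron-sulfur core subunit on the path of electrons to ubiquinone. It had 45.1, 45.7 and 18.5 CPM in WT and 46.0, 23.1, 30.8 and 33.8 CPM in ORP4L KI libraries, and ORP4L KI replicate 1 was level with WT replicates 1 and 2 (log2 fold change -0.13, standard error 0.34). Ndufs1, the largest core subunit, had 42.1, 49.0 and 49.9 CPM in WT and 55.7, 52.0, 51.9 and 43.7 CPM in ORP4L KI. Its 7 values spanned 1.32-fold, without the low WT replicate 3 seen for its smaller partners. Ndufa4, named with complex I but known as a subunit bound to complex IV, differed by 0.42 on the log2 scale (standard error 0.39).

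Complex II, the only complex that is also an enzyme of the citric acid cycle, is built of 4 nuclear subunits. Sdha, the flavoprotein that oxidises succinate, had 190, 177 and 170 CPM in WT and 173, 180, 170 and 152 CPM in ORP4L KI libraries. It had the smallest SD of log2 CPM of all 80 subunits (0.098), and its highest library was 1.25 times its lowest (log2 fold change -0.09, standard error 0.17). Sdhb, the iron-sulfur subunit, had 73.8, 72.9 and 46.1 CPM in WT and 95.7, 59.8, 67.8 and 74.2 CPM in ORP4L KI. Sdhc and Sdhd, which anchor the complex in the membrane, were highest in ORP4L KI replicate 1. Sdhd had 70.2, 78.4 and 50.3 CPM in WT and 126, 50.1, 63.6 and 73.0 CPM in ORP4L KI. Log2 fold changes were 0.21, 0.19 and 0.24 for Sdhb, Sdhc and Sdhd, each below its standard error of 0.24, 0.29 and 0.32.

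In complex III, Uqcrb, which borders the ubiquinone pocket, had 56.3, 62.6 and 31.5 CPM in WT and 129, 49.7, 53.6 and 63.3 CPM in ORP4L KI libraries. ORP4L KI replicate 1 stood far above the rest, while the other 3 fell within or just above the WT range (log2 fold change 0.56, standard error 0.38). Uqcrc2, a large core protein on the matrix side, had 113, 123 and 102 CPM in WT and 101, 115, 115 and 109 CPM in ORP4L KI. Here the 7 libraries spanned 1.22-fold and ORP4L KI replicate 1 was the lowest. Uqcrh, the hinge protein that contacts cytochrome c1, had the highest level per length of the complex (median RPKM 202) and a log2 fold change of 0.31 (standard error 0.33).

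Of the 80 subunits compared, only Cox6a2 of complex IV had groups that did not overlap. Cox6a2 encodes the heart and skeletal muscle isoform of a small regulatory subunit, whose other isoform, Cox6a1, is made in most tissues. Cox6a2 (NM_009943, chr7:128205435-128206366 on GRCm38.p6) had 192, 249 and 74 reads in WT replicates 1, 2 and 3 and 64, 44, 37 and 25 reads in ORP4L KI replicates 1, 2, 3 and 4. As CPM these were 11.9, 15.7 and 5.20 in WT and 3.90, 2.41, 2.13 and 1.56 in ORP4L KI. Every ORP4L KI library lay below every WT library, and WT replicate 3 was nearest to them. The mean was 10.9 ± 5.30 CPM (SD, n = 3) in WT and 2.50 ± 0.998 CPM (SD, n = 4) in ORP4L KI T-cells.

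The log2 fold change of Cox6a2 was -2.13 (standard error 0.43), with an unadjusted p of 0.000699 and an adjusted p of 0.0686 by edgeR's quasi-likelihood test, so it did not pass the adjusted threshold. By an exact permutation test of the genotype labels (35 arrangements) the two-sided p was 0.0286, the smallest these group sizes allow. Groups that do not overlap put this p at or near its minimum by themselves. The permutation test therefore adds no support beyond that lack of overlap, for which Cox6a2 was singled out. Over 20 alternative settings the log2 fold change ranged from -2.90 to -1.78, with an unadjusted p under 0.05 in all 20, and the adjusted p ranged from 0.000293 to 0.318 and was under 0.05 in 5. Cox6a1 had 202, 217 and 83.2 CPM in WT and 288, 92.3, 152 and 196 CPM in ORP4L KI libraries. Its groups overlapped (log2 fold change 0.12, standard error 0.42), and it was the 4th most abundant subunit per length, with a median RPKM of 319 against 4.93 for Cox6a2. Cox6a2 gave 5.57%, 6.73% and 5.88% of the reads of both isoforms in WT and 1.34%, 2.54%, 1.38% and 0.785% in ORP4L KI libraries. Measured against its sister isoform within each library, the WT values lay close together.

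Markers of dendritic cells were lower in ORP4L KI libraries too. All 8 of 8 were lower in ORP4L KI libraries at an unadjusted p under 0.05, where 6.86% of all genes were. Their median log2 fold change was -1.51. Their summed level was 567, 763 and 493 CPM in WT and 148, 208, 270 and 182 CPM in ORP4L KI libraries, so these groups did not overlap either. Within ORP4L KI the order differed from that of Cox6a2. Replicate 1 had the lowest marker sum (148 CPM) but the highest Cox6a2 level of the ORP4L KI libraries (3.90 CPM). Siglech, a surface receptor that defines plasmacytoid dendritic cells, had 107, 144 and 80.9 CPM in WT and 31.3, 26.2, 16.4 and 16.4 CPM in ORP4L KI. In bulk libraries, fewer cells of a type and less RNA per cell cannot be told apart. The methods describe isolation of naive CD4+ T-cells from blood or spleen and their culture with IL-2, and the isolation would remove dendritic cells. Whether these libraries were made from cells so treated is not given in the sources used here. Cd8a, of the T-cell markers, had 124 to 179 CPM in WT and 79.6 to 226 CPM in ORP4L KI libraries. B-cell markers took 0.42% to 1.05% of the reads in WT and 0.187% to 0.463% in ORP4L KI libraries. What these levels say of the isolation was not tested. The part of dendritic cells in the Cox6a2 result was not tested.

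**Figure D4:**
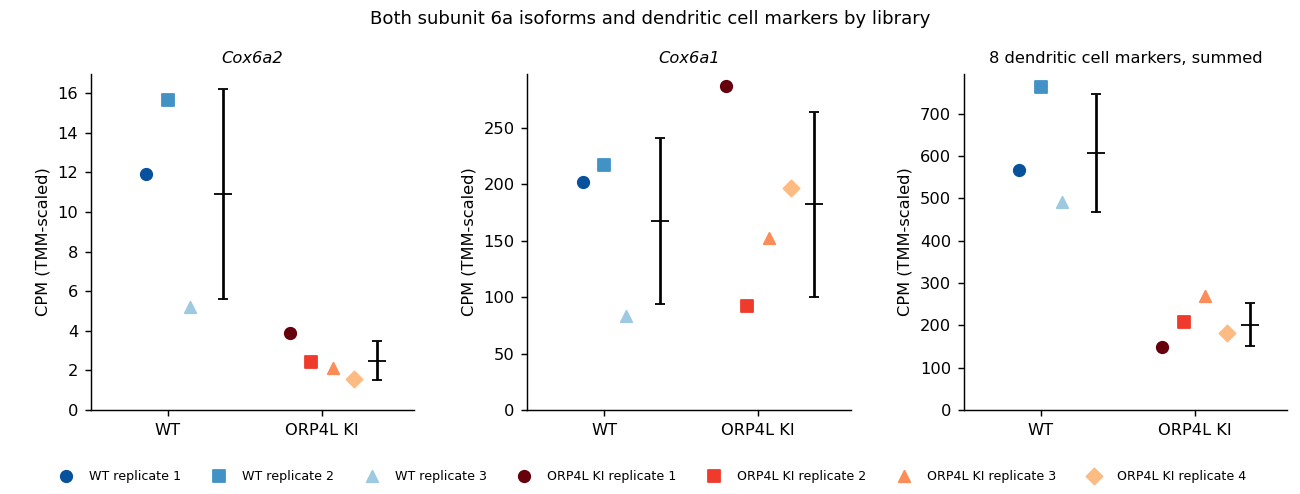
CPM (y axes, from 0) of Cox6a2, of Cox6a1 and of 8 dendritic cell markers summed, in each library. Points are libraries, and bars give the mean ± SD of 3 WT and 4 ORP4L KI libraries. For Cox6a2 and the markers every ORP4L KI library is below every WT library, and for Cox6a1 the groups overlap.

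Groups overlapped for the other 12 complex IV genes compared. Cox5a, a subunit on the matrix side, had 72.7, 84.2 and 39.1 CPM in WT and 209, 44.2, 64.9 and 84.7 CPM in ORP4L KI libraries. The high library, ORP4L KI replicate 1, carried its estimate (log2 fold change 0.62, standard error 0.50). Cox4i1, the common isoform of the largest nuclear subunit, had the highest level per length of all 80 subunits (median RPKM 462). It had 326, 351 and 193 CPM in WT and 484, 199, 283 and 374 CPM in ORP4L KI (0.21, standard error 0.33). Cox7a2l, which helps join complexes III and IV into supercomplexes, had 281, 289 and 246 CPM in WT and 319, 194, 285 and 307 CPM in ORP4L KI (0.02, standard error 0.22).

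Among the isoforms with at least 10 reads in every library, Cox6a2 alone had groups that did not overlap. Cox6b1, the common isoform, and Cox6b2, known from testis, had log2 fold changes of 0.39 (standard error 0.41) and 0.35 (0.56), and the latter was scarce, at 1.26 to 8.89 CPM. Cox7a2, Cox7b and Cox8a had 0.51, 0.35 and 0.21, with standard errors of 0.40, 0.34 and 0.33. The muscle or testis isoforms Cox7a1, Cox7b2, Cox8b and Cox8c missed the minimum of reads. The last 3 had 0 reads in every library, which allows up to 3 reads each, and Cox7a1 had at most 5. Cox4i2, the isoform known from lung, had 1, 0 and 0 reads in WT and 40, 2, 6 and 6 in ORP4L KI libraries, so the groups did not overlap, although ORP4L KI replicate 2 was under the 3 reads that a count of 0 allows. Ndufa4l2, a relative of Ndufa4 known from low oxygen, had 0 reads in WT and 2, 2, 0 and 6 in ORP4L KI. Ndufb4 (22, 31 and 7 reads in WT, 68, 26, 24 and 41 in ORP4L KI) was just outside the minimum through WT replicate 3. Its near-identical copy Ndufb4c passed it, and the division of reads between them is uncertain. Just inside were Cox6b2 and Cox6a2, with lowest counts of 18 and 25.

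Complex V held the largest positive estimate. Atp5k, whose promoter is shown above, had 16.1, 16.9 and 7.59 CPM in WT and 68.1, 9.80, 13.0 and 13.1 CPM in ORP4L KI libraries. ORP4L KI replicate 1 stood alone, and the other 3 ORP4L KI libraries were below both WT replicates 1 and 2. The log2 fold change of 0.94 (standard error 0.68) became -0.18 without that library. Atp5b, the catalytic beta subunit, had 678, 704 and 501 CPM in WT and 738, 586, 646 and 646 CPM in ORP4L KI (log2 fold change 0.06, standard error 0.21). Atp5a1, the alpha subunit that surrounds the catalytic sites with it, had 573, 592 and 483 CPM in WT and 569, 553, 587 and 562 CPM in ORP4L KI. Atp5b and Atp5a1 spanned 1.47-fold and 1.23-fold over the 7 libraries.

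The membrane ring of the synthase is built from 1 protein encoded by 3 genes. Atp5g1 had 75.5, 76.8 and 37.9 CPM in WT and 94.8, 41.2, 56.2 and 60.3 CPM in ORP4L KI libraries, and its log2 fold change of -0.01 (standard error 0.33) was the lowest of complex V. Atp5g2, the most abundant of them per length (median RPKM 247), had 0.03 (standard error 0.30), and Atp5g3 had 0.41 (standard error 0.38). Reads shared by these genes can be divided between them by the mapping, so their separate counts are less certain than their sum.

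Spread among libraries followed transcript length. The longest transcript of a subunit had a median of 731.5 bases (221 to 2859), against 2802 bases over all genes tested. The SD of log2 CPM over the 7 libraries had a median of 0.57 for the subunits and of 0.38 for the 12055 genes with at least 10 reads in every library. For the 29 subunits under 600 bases the median SD was 0.66 and the highest library was 4.27 times the lowest. For the 30 from 600 to under 1200 bases these were 0.51 and 2.77, and for the 21 of 1200 bases or more 0.36 and 2.15. The correlation of length with SD across the 80 subunits was -0.69 (Spearman's rho, a description of genes measured in the same libraries), and across all genes it was -0.03. Length also ran against the log2 fold change among the subunits (rho -0.48).

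The steadiest subunits, Sdha, Atp5a1, Uqcrc2, Ndufs1 and Atp5b, with SDs of 0.10 to 0.19, have long transcripts (1879 to 2859 bases) and encode large catalytic or core proteins. Other subunits listed in that range of lengths were not steady, with SDs of 0.70 for Ndufa11 (2661 bases) and 0.61 for Ndufb8 (2159 bases). The most variable after Cox6a2 were Ndufa3, Atp5k and Ndufc1, with SDs of 1.08, 1.02 and 0.92.

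The same tilt with length ran through all genes of these libraries. The 12055 genes were put in 4 bins of like size by length. In the shortest bin (up to 1784 bases, which holds 72 of the 80 subunits) the median gene deviated by 0.31 on the log2 scale in ORP4L KI replicate 1, by -0.40 in WT replicate 3 and by -0.29 in ORP4L KI replicate 2. In the longest bin the same libraries deviated by -0.23, 0.34 and 0.26. WT replicates 1 and 2 and ORP4L KI replicate 4 also turned sign, from 0.12 to 0.13 in the shortest bin to between -0.14 and -0.12 in the longest, and ORP4L KI replicate 3 was near 0 in both. Ordered by read-weighted length, the libraries ran from ORP4L KI replicate 1 (2459 bases, 11402 CPM summed over the 80 subunits) to ORP4L KI replicate 2 (3292 bases, 5410 CPM) and WT replicate 3 (3344 bases, 4704 CPM). The cause of the tilt was not tested.

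**Figure D5:**
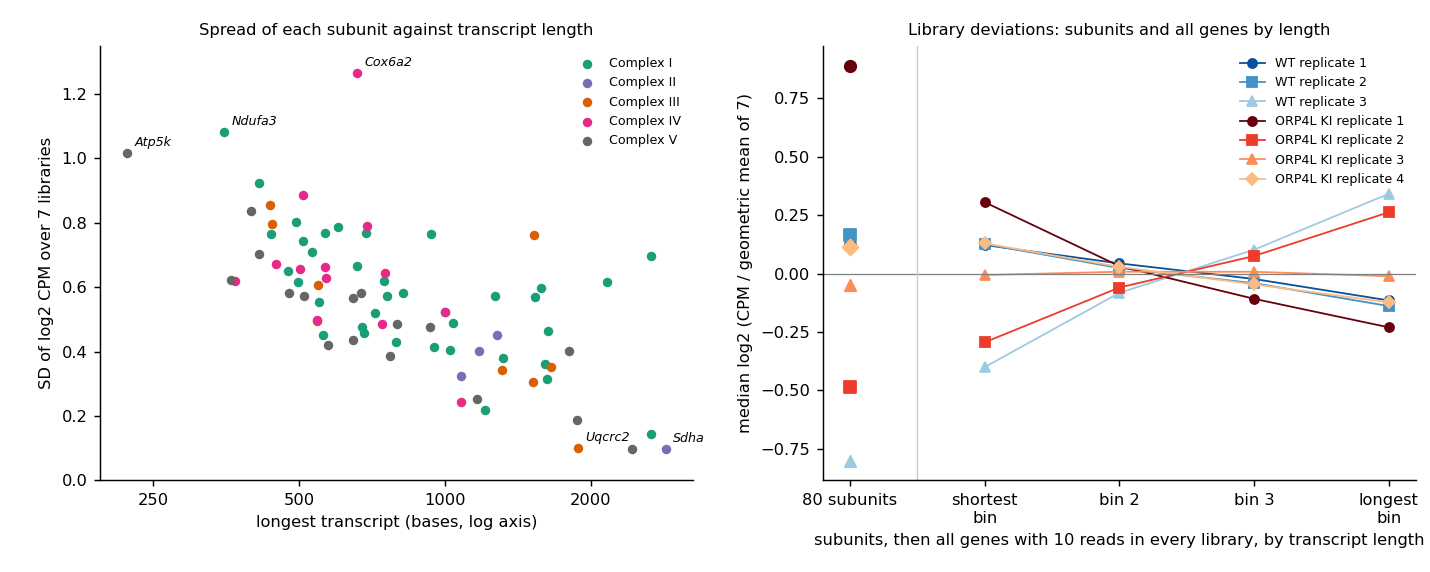
Left, SD of log2 CPM over the 7 libraries (y axis) against the longest transcript of each of the 80 subunits (x axis, log scale), coloured by complex. Right, median log2 deviation of each library from the geometric mean of the 7 (y axis) for the 80 subunits and for 4 bins of all genes by length. ORP4L KI replicate 1 falls from 0.31 in the shortest to -0.23 in the longest bin, and WT replicate 3 goes from -0.40 to 0.34.

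When the trend on length was removed from each library, a setting added after the data were seen, the median of the 80 log2 fold changes was 0.13 with 62 above 0, and all genes had a median of 0.03. Under that setting 4 subunits had every ORP4L KI library above every WT library (Ndufb11, Ndufb7, Ndufv3 and Sdhb) and 2 had every one below (Cox6a2 and Ndufa10), against 8.31% and 8.51% of all genes. The shares of the 80 subunits were thus no higher than those of all genes.

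Genes that serve the same pathway were read from lists. Of 50 assembly factors, the proteins that build the complexes without staying in them, 23 lay above 0 and 27 below, with a median log2 fold change of -0.02. At an unadjusted p under 0.05 1 was higher and 1 lower, where 6.85% and 6.86% of all genes were. The lower one, Ecsit, which assists complex I assembly, had 19.1, 17.04 and 15.1 CPM in WT and 10.3, 11.7, 12.7 and 13.1 CPM in ORP4L KI libraries, without overlap (log2 fold change -0.51, standard error 0.20, edgeR adjusted p = 0.293). Cox17, a copper chaperone of complex IV, had 28.4, 33.3 and 12.6 CPM in WT and 95.8, 18.9, 27.1 and 26.6 CPM in ORP4L KI libraries. Again ORP4L KI replicate 1 stood alone. The extremes of the list were Pet117 (-0.70, standard error 0.44) and Pet100 (0.88, standard error 0.70), both named as factors of complex IV.

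The 18 enzymes of the citric acid cycle had 7 above 0 and 11 below (median -0.04). At an unadjusted p under 0.05 0 were called, where 6.85% of all genes were higher and 6.86% lower. Idh3b, a subunit of isocitrate dehydrogenase, had 104, 95.1 and 90.3 CPM in WT and 65.6, 85.5, 85.6 and 86.8 CPM in ORP4L KI (log2 fold change -0.25, standard error 0.18). Dld, shared by several dehydrogenase complexes, had 57.8, 66.2 and 71.2 CPM in WT and 104, 75.8, 72.4 and 77.1 CPM in ORP4L KI (0.34, standard error 0.20). Both had groups that did not overlap, in opposite directions. Among all genes, 6.43% had every ORP4L KI library above every WT library and 7.38% had every one below. Fh1, which hydrates fumarate, and Sucla2, of succinyl-CoA ligase, had -0.25 and 0.27 with standard errors of 0.23 and 0.21.

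The 13 electron and coupled carriers tested, which include cytochrome c, the adenine nucleotide carriers and the outer membrane channels, had a median of 0.16 with 11 above 0. The 78 proteins of the mitochondrial ribosome had a median of 0.10 with 58 above 0, and the 81 of the cytosolic ribosome a median of 0.12 with 69 above 0. In none of these 3 lists did a gene pass an unadjusted p of 0.05 by edgeR. Of all genes, 6.85% passed it as higher and 6.86% as lower. Log2 fold changes ran among the carriers from -0.33 for Dhodh and -0.17 for Slc25a4 to 0.50 for the channels Vdac1 and Vdac2. They ran in the mitochondrial ribosome from -0.42 for Mrps6 and -0.28 for Mrps27 to 0.66 for Mrpl33 and 0.90 for Mrps18c. In the cytosolic ribosome they were -0.09 for Rps14, 0.60 for Rps29 and 0.68 for Rpl39. The mitochondrial ribosome, with a median length of 1064 bases, deviated by 0.44 in ORP4L KI replicate 1 and by -0.55 in WT replicate 3, as the subunits did. The cytosolic ribosome, with a median length of 703 bases, kept only part of that order. It was low in WT replicate 3 (-0.43) and ORP4L KI replicate 2 (-0.44), which were also low for the subunits. At the other end it deviated by only 0.13 in ORP4L KI replicate 1 and was highest in ORP4L KI replicate 4 (0.36).

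The 19 regulators of mitochondrial genes had 10 above 0 and 9 below (median 0.02). At an unadjusted p under 0.05 0 were called, against 6.85% of all genes as higher and 6.86% as lower. Ppargc1a, the coactivator that drives mitochondrial biogenesis in muscle and brown fat, was at 0.124 to 0.880 CPM in all libraries, and Polg2, the accessory subunit of the mitochondrial DNA polymerase, differed by -0.48 on the log2 scale (standard error 0.28). For the subunits encoded in mitochondrial DNA, 26 symbols were searched and 0 were among the genes listed, so they could not be examined here.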

How the data were processed

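T-cell RNA of 7 mice was sequenced, and per the methods the authors trimmed adapters, discarded reads under 17 nt, mapped reads to mouse mRNA references with FANSe3 and merged splice variants. The deposited unit is the read count per gene, not normalized, beside the RPKM the authors computed from the longest transcript. The deposited transcript length, another column, was used as given. Labels name build mm10. Counts were tested with edgeR 4.0.16 in R 4.3.3 (filterByExpr, TMM, quasi-likelihood test, no covariates, 7 libraries), and RPKM was used only to compare levels between genes. The standard error is the size of the log2 fold change over the square root of F. Alternatives were other scalings, filters, DESeq2 1.42.0, a likelihood ratio test, a replicate block, thinned counts, and leaving out libraries. On simulated data the test was checked. Intervals of 0 reads cover counting error only.

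The subunits and gene lists were chosen with earlier results of these data known. Subunits described were all of complex II, the largest and smallest change and the highest RPKM of each other complex, the 10 smallest p, isoform pairs, and those under the minimum of reads, and of the other pathway lists the 2 highest and 2 lowest, of which 1 is not reported here. Atp5a1, Ndufs1, Ndufc1, Ndufa10, Ndufa11, Ndufb8, Ndufb4c and Gabpa are described outside this rule, picked with their values in view. Coordinates and promoters are from RefSeq on GRCm38.p6. Each mouse gave 1 library. Other software was Matplotlib 3.10.9, SciPy 1.17.1, pandas 2.3.3, Python 3.11.15 and limma 3.58.1.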

Additional observations from a re-analysis of the deposited data

Results flagged for a closer look

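In 36 groups of the 4 ORP4L KI libraries, 3 held a library set apart from the rest (1 in 20 of independent groups would be 1.8). In each it was ORP4L KI replicate 1, with 68.12 CPM of Atp5k against 9.80 to 13.1 in the others, 79.93 CPM of Ndufb3 against 28.0 to 36.8, and 129.4 CPM of Uqcrb against 49.7 to 63.3. The same library had the most granulocyte reads (12.2%) and the lowest read-weighted transcript length (2459 bases). Whether either bears on these values was not tested. The 36 groups share the same 4 libraries, so they are not independent. Atp5k, Ndufb3 and Uqcrb were also named for a large change or a small p in these data. The count of 3 therefore cannot be set against chance.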

How the results depend on the processing

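Depth limits the scarce genes (Cox6b2, Cox6a2), and 3 libraries against 4 allow no permutation p below 0.0286. With 1 library per mouse, genotype, cell make-up and the tilt with transcript length cannot be told apart, and the cause of the changes listed here was not tested. The number of subunits with an adjusted p under 0.05 was 0 with all single libraries left out, and 1, Cox6a2, with total counts alone, no filter, DESeq2's Wald test, edgeR's likelihood ratio test, and WT replicates 1 and 2 against ORP4L KI replicates 3 and 4. Its log2 fold change in those fits was -2.27, -2.12, -2.12, -2.13 and -2.90, and 0.839%, 0.951%, 5.82%, 5.24% and 5.21% of all genes passed. At an unadjusted p under 0.05, 1 subunit was higher (Ndufv3) with no filter (6.12% of all genes), with DESeq2 (8.47%) and with WT 1 and 2 against ORP4L KI 3 and 4 (12%), 0 to 2 with single libraries left out (2 without ORP4L KI replicate 2, Ndufb11 and Ndufv3, where 8.64% of all genes were), and 3 with the length trend removed (Ndufb11, Ndufb7 and Ndufv3, where 8.74% were). With WT 1 and 2 against ORP4L KI 3 and 4, 5 were lower (Atp5g1, Cox6a2, Ndufc1, Ndufc2 and Ndufs7), where 10.3% of all genes were. With the length trend removed, 4 had all ORP4L KI libraries above WT and 2 below.

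The median of the 80 log2 fold changes was 0.30, from -0.02 to 0.47 with single libraries left out, and 0.21 with WT 3 and ORP4L KI 2 left out. WT and ORP4L KI share the replicate numbers 1 to 3, but deviations of same-numbered libraries correlated at 0.15, -0.54 and -0.002, and not every library correlated best with its own number, so they were not treated as pairs. With the replicate number as a block (ORP4L KI 4 left out) the median was 0.24, and 0.32 without the block in the same libraries, and no subunit changed its call.

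Of 527 results of 31 subunits named above under settings chosen at the outset, 476 kept direction and side of the threshold, 4 gained the threshold and 47 changed sign, all of them in subunits that did not pass it. Atp5g1 turned to 0.0107 with DESeq2's size factors, 0.000307 with no filter, 0.0109 with DESeq2's test, 0.00132 with the block, 0.0152 without it and 0.0177 with thinned counts. Cox7a2l turned to -0.0653 with the block and -0.0376 without it. With total counts, Atp5b was -0.0898, Atp5g2 -0.142, Cox6a1 -0.0625 and Cox7a2l -0.144, and with upper-quartile scaling Atp5b was -0.0089, Atp5g2 -0.0446 and Cox7a2l -0.0449. With single libraries left out the ranges were -0.078 to 0.15 for Atp5b, -0.27 to 0.15 for Atp5g1, -0.21 to 0.21 for Atp5g2, -0.036 to 0.58 for Atp5g3, -0.18 to 1.21 for Atp5k, -0.024 to 0.38 for Cox4i1, -0.016 to 0.86 for Cox5a, -0.20 to 0.35 for Cox6a1, -0.088 to 0.59 for Cox6b1, -0.14 to 0.67 for Cox6b2, -0.059 to 0.14 for Cox7a2l, -0.037 to 0.39 for Cox8a, -0.13 to 1.07 for Ndufa3, -0.44 to 0.070 for Ndufs7, -0.061 to 0.32 for Sdhc, -0.092 to 0.39 for Sdhd, -0.10 to 0.029 for Uqcrc2 and -0.014 to 0.49 for Uqcrh.

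Under the settings added after the data were seen 26 more changed sign. With WT 1 and 2 against ORP4L KI 3 and 4 these were Atp5b -0.0967, Atp5g2 -0.220, Atp5g3 -0.143, Atp5k -0.338, Cox4i1 -0.0443, Cox5a -0.0695, Cox6a1 -0.265, Cox6b1 -0.141, Cox6b2 -0.475, Cox7b -0.0487, Cox8a -0.0842, Ndufa1 -0.000681, Ndufa3 -0.154, Ndufa4 -0.0960, Ndufb3 -0.0599, Sdhb -0.0472, Sdhc -0.112, Sdhd -0.121 and Uqcrb -0.0261. With WT 3 and ORP4L KI 2 left out they were Atp5b -0.0283 and Atp5g2 -0.0457, and with the length trend removed Atp5g2 -0.133, Cox6a1 -0.0766, Cox6b1 -0.0180, Cox7a2l -0.0780 and Cox8a -0.00913.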
